A study of Homo sapiens with 12 samples.

Results

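The major histocompatibility complex (MHC) class II pathway was described through 10 genes in human triple-negative breast cancer cells with and without interferon-β. They are the transactivator gene CIITA, the invariant chain gene CD74, 5 chain genes of the classical molecules (HLA-DRA, HLA-DRB1, HLA-DPA1, HLA-DPB1 and HLA-DQA1), both chain genes of the peptide editor HLA-DM (HLA-DMA and HLA-DMB) and CTSS, which encodes the protease cathepsin S. They were chosen by symbol among the 61552 genes of the count tables, and all 10 were found there. RNA-seq had been made of 12 libraries, 3 in each of 4 groups. The groups were untreated HCC38, HCC38 given interferon-β at 400 IU/mL for 48 h, untreated MDA-MB-231 and MDA-MB-231 given the same dose for the same time. Both lines were labelled wild type and were grown with fetal calf serum, HCC38 in RPMI-1640 and MDA-MB-231 in DMEM with 1 g/L glucose. Cell line and medium therefore cannot be told apart. The libraries were labelled biological replicates without a word on separate cultures, so the p-values measure the spread between these libraries, which may be technical.

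MHC class II molecules are pairs of an α and a β chain that show peptides from endosomes to CD4+ T cells. They are typical of dendritic cells, macrophages and B cells, and many carcinoma cells also make them when exposed to interferon-γ. The invariant chain CD74 fills the groove and carries new molecules to endosomes, where cathepsin S trims it and HLA-DM swaps the remaining fragment for a peptide. CIITA binds no DNA itself. It is recruited to class II promoters by a complex on the X and Y boxes, which holds RFX5, RFXAP and RFXANK, the trimer NF-Y and CREB1. Interferon-γ is the classical inducer of CIITA, whereas interferon-β is a type I interferon that acts through another receptor.

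The X and Y boxes can be looked for in the reference promoters, and matches are shown because the complex that recruits CIITA sits on these boxes. RefSeq promoter windows (GRCh38.p14) were given for 7 of the 10 genes, all but CIITA, HLA-DRA and CTSS. The 250 bases before each start were searched on both strands for an X core written as CNAG followed directly by NNACNGA (N is any base), for ATTGG, the Y box that NF-Y binds (CCAAT on the other strand), and for 2 interferon elements, TTCNNNGAA and a pair of GAAA with 2 bases of any kind between them. These motifs overlap in none of the stretches printed here, and the letters of the X core were chosen after these promoters had been seen. Capitals mark the X core and ATTGG or CCAAT. Each stretch runs 5′ to 3′ along the gene's own strand.
HLA-DRB1 (chr6:32589882-32589937, minus strand): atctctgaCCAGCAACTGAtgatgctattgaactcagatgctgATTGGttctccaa
HLA-DQA1 (chr6:32637294-32637350, plus strand): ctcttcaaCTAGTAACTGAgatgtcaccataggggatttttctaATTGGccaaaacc
HLA-DMA (chr6:32953164-32953220, minus strand): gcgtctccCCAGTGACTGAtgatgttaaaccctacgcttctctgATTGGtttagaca
HLA-DMB (chr6:32941071-32941126, minus strand): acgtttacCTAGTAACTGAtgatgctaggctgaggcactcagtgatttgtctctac
HLA-DPA1 (chr6:33073731-33073760, minus strand): tcctctttacCCAGCAACAGAgaatgtcag
HLA-DPB1 (chr6:33075870-33075925, plus strand): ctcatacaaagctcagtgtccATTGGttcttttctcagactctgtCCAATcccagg
CD74 (chr5:150412947-150412976, minus strand): gggccctgggcagCCAATgggatcgtgctg

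An X core followed by ATTGG, counted 35 bases on in HLA-DRB1 and 36 in HLA-DQA1 and HLA-DMA from start to start, stood in these 3 promoters. HLA-DMB and the second of 2 listed HLA-DPA1 starts held the X core with no ATTGG at 20 to 40 bases from it, and the other HLA-DPA1 start held neither. HLA-DPB1 and CD74 held ATTGG or CCAAT without those X letters. Of all 35116 RefSeq windows, 2.59% held the X core, 32.0% held ATTGG and 14 windows, 0.0399%, held an X core with ATTGG 20 to 40 bases further on. The 14 included HLA-DRB5, HLA-DQB1 and HLA-DOA beside the 3 named above, so 6 of the 14 belonged to class II chain genes. TTCNNNGAA matched among the 7 genes only in HLA-DQA1 (6.57% of all windows). The GAAA pair, the form of the interferon-stimulated response element, matched in none of the 7 (3.02% of all windows). A match is a description of the letters, and a missing match says only that those letters are not in the window.

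Total counts per library ran from 26660038 to 43588773, and 18121 genes passed the filter on low counts. All 10 class II pathway genes were among them. HLA-DRB1, HLA-DPA1, HLA-DPB1, HLA-DQA1 and HLA-DMB did not reach the level of the filter in any untreated MDA-MB-231 library and passed through the other groups. The MDA-MB-231 libraries fell into 2 sets by the numbers in their deposited names. Numbers 1 and 2 are untreated replicates 1 and 2 and treated replicate 1, and numbers 4 and 5 are untreated replicate 3 and treated replicates 2 and 3. Replicates of a group differed by a chi-square of 45.6 to 66.1 per degree of freedom between the sets, against 4.25 to 14.7 for all other pairs. Each set has 1 library in one arm, which in a fit within the set is assumed to vary like the other groups. KRT8, KRT18, KRT19, EPCAM and VIM, 5 markers of line identity, had counts in every group. KRT19 held only 44 and 26 counts in untreated and treated MDA-MB-231, against 30484 and 25937 in HCC38. EPCAM held 271 and 477 counts in untreated and treated MDA-MB-231, against 21069 and 22466 in HCC38. ESR1 and PGR stayed below the filter, and ERBB2 passed it. A list of 14 leukocyte markers, 5 of which passed the filter, summed to 8.94 to 10.7 CPM (counts scaled to a common library size) in untreated and 9.47 to 11.9 CPM in treated HCC38, and MS4A1 and TYROBP were at 0 counts in all 12 libraries. Of the 5 tested, 1 was called higher in HCC38, where 2.39% of all genes were. It was PTPRC, which encodes CD45 and went from 0.168 ± 0.080 to 0.583 ± 0.055 CPM (SD, n = 3, 16 against 50 counts, edgeR adjusted p = 0.0376). The log2 fold changes of the other tested markers in HCC38, none of them called, were 0.78 for LAPTM5, 0.72 for ITGAX, -0.23 for CSF1R and -0.32 for CD14. In MDA-MB-231 the same 14 markers summed to 110 to 195 CPM untreated and 109 to 157 CPM treated, of which LAPTM5 made up 163 ± 47.6 and 122 ± 28.3 CPM on average. The part of other cells in the class II values was not tested, and in bulk RNA a change in the number of cells that express a gene cannot be told apart from a change in the RNA of each cell.

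Interferon-β was followed by higher RNA of 8 of the 10 genes in MDA-MB-231 and of 2 in HCC38. In MDA-MB-231, CIITA, CD74, HLA-DRA, HLA-DRB1, HLA-DPA1, HLA-DPB1, HLA-DMA and CTSS passed the test upward, and none passed downward. HLA-DRB1, HLA-DPA1 and HLA-DPB1 reached the filter level in no untreated library there, so a call of higher was favoured for them. A gene was called where edgeR's quasi-likelihood test gave a p under 0.05 after Benjamini-Hochberg adjustment over the genes tested. There 6.46% of all genes tested were called higher and 6.08% lower. In HCC38, CD74 and CTSS passed upward and none downward, where 2.39% of all genes were called higher and 1.25% lower. The median log2 fold change over the 10 genes was 2.08 in MDA-MB-231 (1.98 over 9 genes without HLA-DQA1, whose untreated libraries were all at 0) and 0.49 in HCC38, against 0 over all genes in each line.

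**Figure D1:**
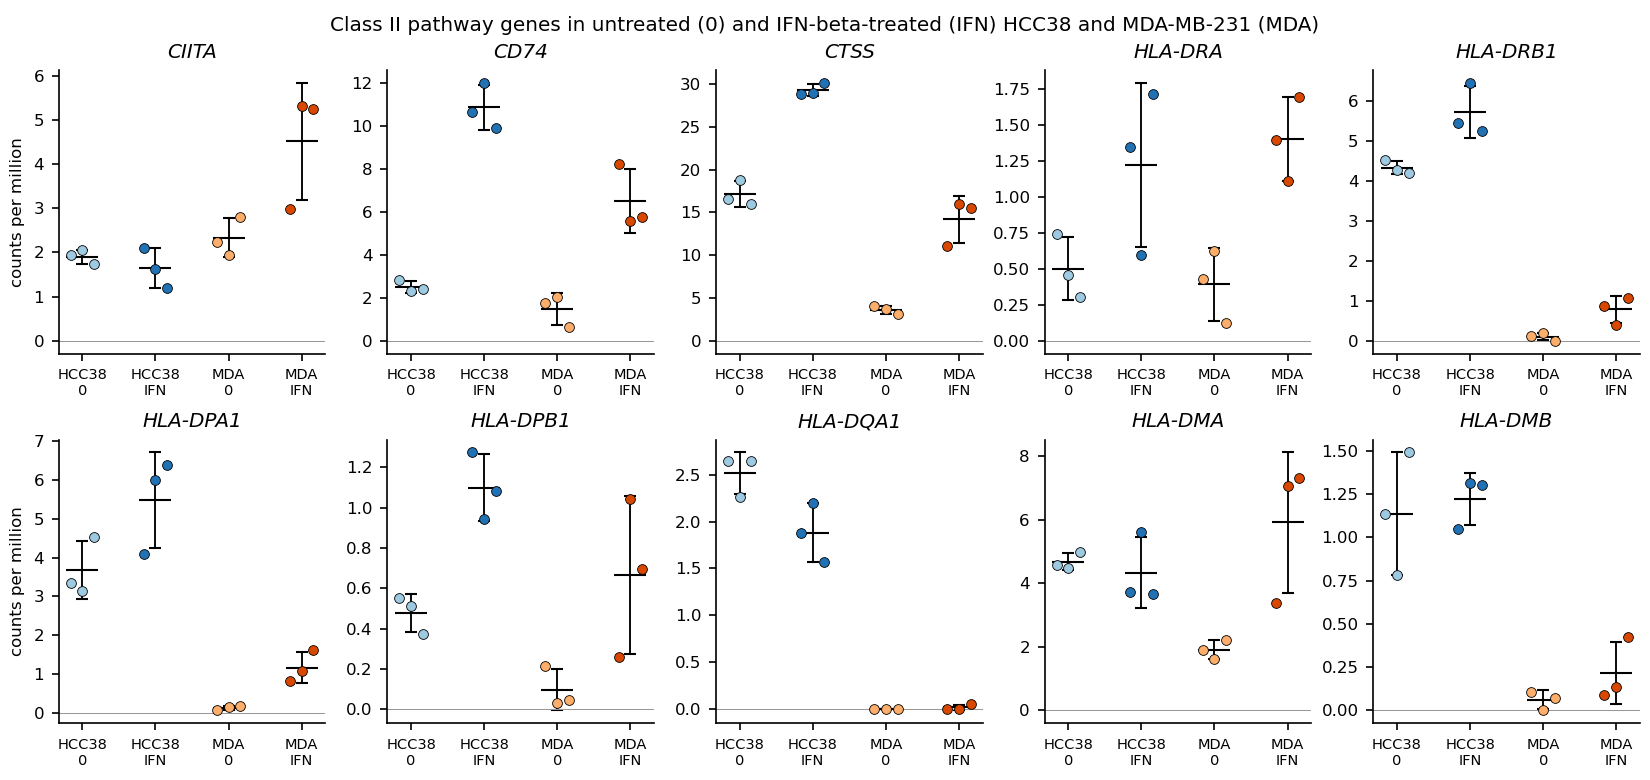
CPM of the 10 genes in each library, with the group mean (bar) and SD (whiskers), n = 3; 0 stands for untreated and IFN for interferon-β, and the vertical scales differ between panels. CD74 and CTSS are separated by treatment in both lines, whereas HLA-DRB1, HLA-DPA1, HLA-DQA1 and HLA-DMB lie near 0 in untreated MDA-MB-231.

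CD74 RNA rose in both lines, by 4.35-fold in the summed counts of HCC38 and 4.66-fold in those of MDA-MB-231. CD74 lies on chr5:150401637-150412969 (GRCh38, minus strand, as for all positions below from the deposited tables). In HCC38 it stood at 2.83, 2.32 and 2.41 CPM untreated and at 10.7, 12.02 and 9.92 CPM treated. In MDA-MB-231 the untreated libraries held 1.75, 2.03 and 0.654 CPM and the treated ones 8.23, 5.55 and 5.78 CPM. Every treated library of a line lay above every untreated library of that line, and the lowest value was that of untreated MDA-MB-231 replicate 3, with 27 counts. CD74 thus had a log2 fold change of 2.11 ± 0.28 in HCC38 (SE, n = 3 against 3, edgeR adjusted p = 0.000426) and 2.17 ± 0.29 in MDA-MB-231 (adjusted p = 0.000228). The difference of both responses was 0.06 ± 0.39 on the log2 scale (adjusted p = 1.00), which does not show that they were equal. Within the MDA-MB-231 libraries numbered 1 and 2 the log2 response was 2.11, and within those numbered 4 and 5 it was 3.10. In FPKM, which divides by transcript length, CD74 went from 2.67 ± 0.51 to 11.3 ± 1.42 in HCC38 and from 1.48 ± 0.83 to 5.81 ± 1.58 in MDA-MB-231 (SD, n = 3).

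CTSS, which encodes the cathepsin that cuts the invariant chain, had the most counts and the smallest standard errors of the 10 genes and rose in both lines, more in MDA-MB-231. CTSS lies on chr1:150730079-150765957 on the minus strand. HCC38 libraries held 16.6, 18.8 and 16.0 CPM untreated and 28.9, 29.0 and 30.2 CPM treated. MDA-MB-231 libraries held 4.00, 3.70 and 3.13 CPM untreated and 11.1, 16.0 and 15.5 CPM treated. The groups of a line did not overlap, and treated MDA-MB-231 lay below untreated HCC38 in CPM, by a narrow gap. In FPKM the treated MDA-MB-231 libraries (8.25, 14.9 and 12.4) overlapped the untreated HCC38 ones (9.49, 12.9 and 12.9). On the log2 scale CTSS rose by 0.77 ± 0.14 in HCC38 (SE, edgeR adjusted p = 0.00454) and 1.98 ± 0.15 in MDA-MB-231 (adjusted p = 5.05e-07), where it was 1.52 within the libraries numbered 1 and 2 and 2.33 within those numbered 4 and 5. With FPKM in place of counts the HCC38 response was 0.58 on the log2(FPKM + 1) scale and no longer passed (limma adjusted p = 0.159). Against a 1.5-fold change rather than 0, the HCC38 adjusted p was 1.00.

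CIITA, the master regulator of the pathway, was low in all groups, and its counts rose in MDA-MB-231, where its FPKM did not. CIITA lies on chr16:10866222-10943021 on the plus strand. In HCC38 it stood at 1.94, 2.05 and 1.73 CPM untreated and at 2.10, 1.63 and 1.19 CPM treated. In MDA-MB-231 it stood at 2.25, 1.94 and 2.81 CPM untreated and at 2.99, 5.32 and 5.25 CPM treated. The HCC38 groups overlapped, and the MDA-MB-231 groups were separated by a narrow gap, with treated replicate 1 close to untreated replicate 3. For CIITA the log2 fold change was -0.22 ± 0.28 in HCC38 (SE, edgeR adjusted p = 0.770) and 0.95 ± 0.25 in MDA-MB-231 (adjusted p = 0.0244). The difference of both responses did not pass (1.17 ± 0.37, adjusted p = 0.108), but it passed in 5 of 24 alternatives, among them a term for the library sets (0.95, adjusted p = 0.0424), the libraries numbered 4 and 5 (1.12, adjusted p = 0.0410) and the omission of MDA-MB-231 treated replicate 1 (1.39, adjusted p = 0.0161). The FPKM values of MDA-MB-231 did not show the rise: they were 1.62, 0.713 and 0.652 untreated and 1.19, 0.931 and 1.18 treated, and the groups overlapped (log2(FPKM + 1) change 0.11, limma adjusted p = 0.855). The call was lost in 9 of 25 alternatives, among them the libraries numbered 1 and 2 alone (0.51, edgeR adjusted p = 0.436, against 0.91 and 0.0262 for those numbered 4 and 5) and the omission of untreated replicate 1, untreated replicate 2, treated replicate 2 or treated replicate 3 (adjusted p = 0.0720, 0.0933, 0.0965 and 0.117). DEXI overlaps the end of CIITA on the opposite strand, and no source used here says how the counting treated strand. DEXI itself went from 17.0 ± 1.31 to 17.9 ± 1.23 CPM in MDA-MB-231 (SD, n = 3, edgeR adjusted p = 0.675).

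The DR molecule pairs an α chain from HLA-DRA with a β chain from HLA-DRB1 or a relative of it, and the RNA of both was higher in treated than in untreated MDA-MB-231. HLA-DRA lies on chr6:32439878-32445046 (plus strand) and HLA-DRB1 on chr6:32577902-32589848 (minus strand). HLA-DRA held 24, 17 and 9 counts in untreated HCC38 (0.738, 0.458 and 0.305 CPM) and 36, 19 and 46 counts in treated HCC38 (1.35, 0.596 and 1.72 CPM). MDA-MB-231 held 12, 21 and 5 counts untreated (0.428, 0.626 and 0.121 CPM) and 48, 33 and 68 counts treated (1.39, 1.11 and 1.69 CPM). The HCC38 groups overlapped through treated replicate 2, and the MDA-MB-231 groups did not overlap. The log2 fold change of HLA-DRA was 1.26 ± 0.50 in HCC38 (SE, edgeR adjusted p = 0.217) and 1.88 ± 0.50 in MDA-MB-231 (adjusted p = 0.0248). Within the lower-numbered MDA-MB-231 libraries the value was 1.37 (adjusted p = 0.182) and within the higher-numbered ones 3.50 (adjusted p = 0.00384). The MDA-MB-231 call was lost in 7 of 25 alternatives, which include the omission of untreated replicate 1 (adjusted p = 0.0591), untreated replicate 3 (0.0583) or treated replicate 3 (0.0992).

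HLA-DRB1 was well detected in HCC38 and close to the limit of detection in untreated MDA-MB-231. It held 147, 159 and 124 counts in untreated HCC38 (4.52, 4.28 and 4.20 CPM) and 146, 206 and 141 counts in treated HCC38 (5.47, 6.46 and 5.26 CPM). In MDA-MB-231 it held 3, 6 and 0 counts untreated and 30, 12 and 43 counts treated (0.870, 0.404 and 1.07 CPM). Treated libraries lay above untreated ones in both lines, but the HCC38 step, 0.40 ± 0.29 on the log2 scale, did not pass (SE, edgeR adjusted p = 0.561). The MDA-MB-231 log2 fold change was 3.12 ± 0.55 (adjusted p = 0.00199). From the summed counts the ratio was 9.31, with an exact binomial 95% interval of 4.68 to 21.1 that covers counting error only. Within the libraries numbered 1 and 2 the log2 change was 2.54 (adjusted p = 0.00183), and the one untreated library of the other set held 0 counts. With the 6 MDA-MB-231 libraries fitted alone the call was lost (adjusted p = 0.0529). HLA-DRB genes vary between people and have near-identical copies, so reads may be split between them and these counts are uncertain.

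The DP molecule pairs the chains of HLA-DPA1 (chr6:33064569-33080775, minus strand) and HLA-DPB1 (chr6:33075990-33089696, plus strand), whose genes overlap head to head. HLA-DPA1 held 3.35, 3.15 and 4.54 CPM in untreated and 4.08, 5.99 and 6.38 CPM in treated HCC38, and these groups overlapped. MDA-MB-231 held 2, 5 and 7 counts untreated and 28, 32 and 65 counts treated, with no overlap. The log2 fold change of HLA-DPA1 was 0.58 ± 0.25 in HCC38 (SE, edgeR adjusted p = 0.272) and 3.09 ± 0.41 in MDA-MB-231 (adjusted p = 0.000198). It passed in MDA-MB-231 under all 25 alternatives, and was 2.79 and 2.98 within the lower-numbered and the higher-numbered libraries. The ratio of summed counts was 8.80 (exact binomial 95% interval 5.05 to 16.6).

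HLA-DPB1 had few counts everywhere. It held 18, 19 and 11 counts in untreated and 34, 30 and 29 in treated HCC38, which did not overlap in CPM. It held 6, 1 and 2 counts in untreated and 9, 31 and 28 in treated MDA-MB-231. There, treated replicate 1 at 0.261 CPM lay just above untreated replicate 1 at 0.214 CPM. The log2 fold change was 1.18 ± 0.48 in HCC38 (SE, edgeR adjusted p = 0.230) and 2.83 ± 0.63 in MDA-MB-231 (adjusted p = 0.00828). The MDA-MB-231 value was 1.15 within the libraries numbered 1 and 2 (adjusted p = 0.555) and 4.04 within those numbered 4 and 5 (adjusted p = 0.00137). On log2(FPKM + 1) it was 0.36 and did not pass (limma adjusted p = 0.551). Without strand the reads of HLA-DPA1 and HLA-DPB1 in their overlap could not be told apart.

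HLA-DQA1 (chr6:32628179-32647062, plus strand), the α chain gene of the DQ molecule, separated the lines rather than the treatments. HCC38 held 86, 84 and 78 counts untreated (2.64, 2.26 and 2.64 CPM) and 50, 70 and 42 counts treated (1.87, 2.20 and 1.57 CPM). All treated HCC38 libraries lay below the untreated ones, but the log2 change of -0.42 ± 0.29 did not pass (SE, edgeR adjusted p = 0.547). In MDA-MB-231 the counts were 0, 0 and 0 untreated and 0, 0 and 2 treated. Over the untreated groups the ratio of HCC38 to MDA-MB-231 was 85.8 with 3 counts over the MDA-MB-231 group as the floor. Its exact binomial 95% interval began at 69.2. Over the treated groups the ratio was 99.0 (exact binomial 95% interval 27.0 to 824). HLA-DQB1, the partner β chain gene and not among the 10, followed the same split: it held 10.8 ± 0.50 CPM in untreated and 8.44 ± 0.46 CPM in treated HCC38 (SD, n = 3), and 0, 0 and 0 counts in untreated and 1, 1 and 4 counts in treated MDA-MB-231.

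HLA-DM, which loads peptides onto the other class II molecules, is built from HLA-DMA (chr6:32948613-32969094) and HLA-DMB (chr6:32934629-32941028), both on the minus strand. HLA-DMA held 4.58, 4.47 and 4.98 CPM in untreated and 3.71, 5.62 and 3.65 CPM in treated HCC38. It held 1.89, 1.61 and 2.20 CPM in untreated and 3.36, 7.07 and 7.30 CPM in treated MDA-MB-231. The HCC38 groups overlapped, and all treated MDA-MB-231 libraries lay above the untreated ones, replicate 1 the least. HLA-DMA had a log2 fold change of -0.11 ± 0.26 in HCC38 (SE, edgeR adjusted p = 0.898) and 1.63 ± 0.27 in MDA-MB-231 (adjusted p = 0.00135). It was 0.94 within the libraries numbered 1 and 2, where it missed the threshold (adjusted p = 0.0569), and 1.70 within those numbered 4 and 5. BRD2 overlaps HLA-DMA on the opposite strand and also rose in MDA-MB-231 (log2 fold change 0.22, edgeR adjusted p = 0.0386).

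HLA-DMB held 37, 29 and 44 counts in untreated and 28, 42 and 35 in treated HCC38, which overlapped. It held 3, 0 and 3 counts in untreated and 3, 4 and 17 in treated MDA-MB-231, where treated replicate 3 stood apart from the other 5 libraries. The log2 fold change was 0.12 ± 0.44 in HCC38 (SE, edgeR adjusted p = 0.942) and 1.87 ± 0.77 in MDA-MB-231 (adjusted p = 0.136), so no change passed in either line. The MDA-MB-231 ratio of summed counts was 3.94 with an exact binomial 95% interval of 1.57 to 11.8, which leaves out the spread between libraries.

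**Figure D2:**
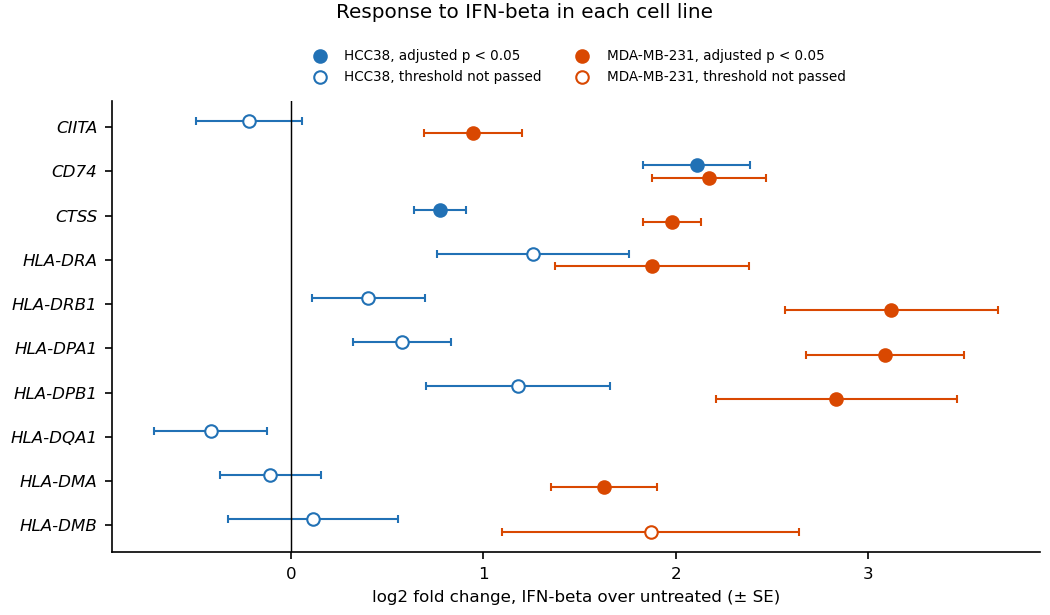
Log2 fold change of each gene after interferon-β with its standard error, in HCC38 (blue) and MDA-MB-231 (orange); filled points passed the adjusted p threshold of 0.05 in edgeR's quasi-likelihood test, and HLA-DQA1 in MDA-MB-231 is left out because its untreated libraries held 0 counts. The CD74 points nearly coincide at 2.11 and 2.17, and the widest gaps are those of HLA-DRB1 and HLA-DPA1.

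The difference of both responses passed for 4 of the 10 genes, all with the larger log2 response in MDA-MB-231, where 1.99% of all genes tested were called in that direction and 1.52% in the other. It was 2.72 ± 0.64 for HLA-DRB1 (SE, edgeR adjusted p = 0.0328), 2.51 ± 0.50 for HLA-DPA1 (adjusted p = 0.0131), 1.73 ± 0.38 for HLA-DMA (adjusted p = 0.0226) and 1.21 ± 0.20 for CTSS (adjusted p = 0.00436). Within the lower-numbered and the higher-numbered MDA-MB-231 libraries the difference was 0.75 and 1.54 for CTSS, 1.04 and 1.79 for HLA-DMA, and 2.21 and 2.39 for HLA-DPA1. Of these, HLA-DMA (adjusted p = 0.0885) and HLA-DPA1 (0.0638) did not pass within the lower-numbered libraries. For HLA-DRB1 it was 2.13 in the lower-numbered libraries (adjusted p = 0.0199), and none is given for the others, whose untreated library held 0 counts. These 4 genes were also lower in untreated MDA-MB-231 than in untreated HCC38, so the larger fold started from a lower level. HLA-DRB1 and HLA-DPA1 reached the filter level in no untreated MDA-MB-231 library, so a larger response in that line was favoured for them. The difference was 0.62 ± 0.71 for HLA-DRA (adjusted p = 0.706), 1.65 ± 0.80 for HLA-DPB1 (0.292) and 1.75 ± 0.89 for HLA-DMB (0.315), all short of the threshold. The CTSS difference passed under 23 of 24 alternatives, whereas the HLA-DMA difference was lost in 13 and the HLA-DRB1 difference in 11. Without MDA-MB-231 treated replicate 3, for example, the adjusted p was 0.102 for HLA-DRB1 and 0.0743 for HLA-DMA, and on log2(FPKM + 1) CTSS alone passed (1.30, limma adjusted p = 0.0439).

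**Figure D3:**
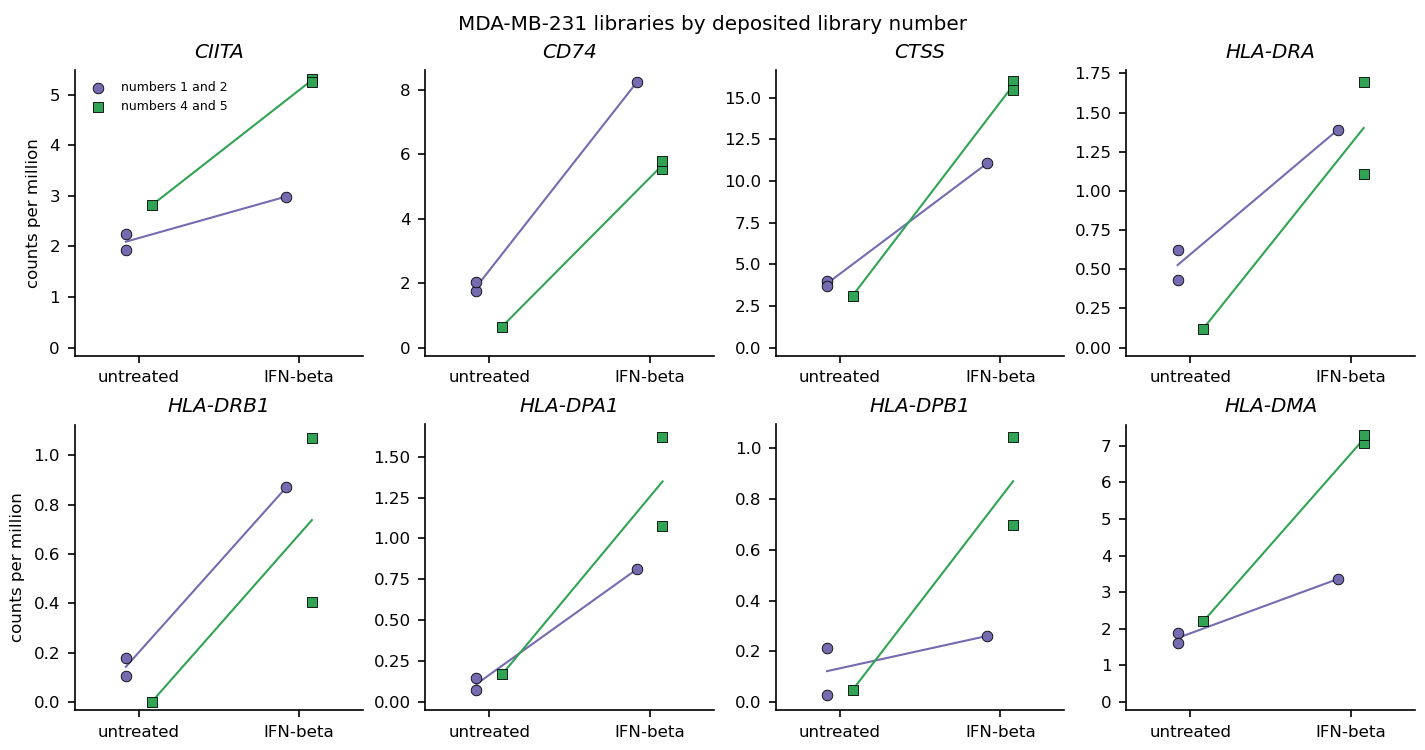
CPM in the 6 MDA-MB-231 libraries, split by the number in the deposited library name (circles, numbers 1 and 2; squares, numbers 4 and 5); lines join the means of a set. All 8 genes shown are higher after interferon-β in both sets, and the log2 step is smaller in the lower-numbered set for each of the 7 genes with counts in every untreated library.

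Before treatment the pathway was lower in MDA-MB-231 than in HCC38, with CIITA and HLA-DRA as the exceptions. The other 8 genes were lower in untreated MDA-MB-231 by the test, and none was higher, in a comparison where 39.0% of all genes were called lower and 36.4% higher. HLA-DRB1, HLA-DPA1, HLA-DPB1, HLA-DQA1 and HLA-DMB reached the filter level in no untreated MDA-MB-231 library and were tested through their levels in other groups. A call of lower was thus favoured for them. The gap was widest for HLA-DQA1, described above. For HLA-DRB1 the summed counts were 430 in HCC38 and 9 in MDA-MB-231, a ratio of 49.6 (exact binomial 95% interval 25.9 to 109). For HLA-DPA1 they were 360 and 14 (ratio 26.7, 15.7 to 49.3), and for HLA-DMB 110 and 6 (ratio 19.0, 8.46 to 52.9). HLA-DPB1 had 48 and 9 counts (ratio 5.53, 2.68 to 12.8; log2 difference -2.38 ± 0.65, SE, edgeR adjusted p = 0.00389), and its call was lost on log2(FPKM + 1) (-0.29, limma adjusted p = 0.386) and log2(FPKM + 0.1) (-1.37, 0.129). CTSS was 4.86-fold higher in HCC38 by summed counts (4.34 to 5.46), HLA-DMA 2.42-fold (2.04 to 2.87) and CD74 1.79-fold (1.46 to 2.22). CIITA differed by a log2 of 0.29 ± 0.26 between the untreated lines (MDA-MB-231 minus HCC38, SE, edgeR adjusted p = 0.324) and HLA-DRA by -0.40 ± 0.55 (adjusted p = 0.523). The CD74 difference of -0.80 ± 0.31 (adjusted p = 0.0289) was -0.40 without untreated MDA-MB-231 replicate 3 (adjusted p = 0.113).

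After treatment CIITA differed between the lines by the test. CIITA was higher in treated MDA-MB-231 than in treated HCC38 (log2 difference 1.46 ± 0.26, SE, edgeR adjusted p = 0.000156), with all 3 MDA-MB-231 libraries above all 3 HCC38 libraries. In the other direction CD74, HLA-DRB1, HLA-DPA1, HLA-DQA1, HLA-DMB and CTSS, 6 of the 10 genes, were lower in treated MDA-MB-231. There HLA-DQA1 held 0, 0 and 2 counts and HLA-DMB 3, 4 and 17. Both passed the filter through HCC38, so a call of lower was favoured for them. Of all genes, 36.7% were called higher and 38.2% lower in this comparison. The ratio of HCC38 to MDA-MB-231 from summed counts was 7.09 for HLA-DRB1 (exact binomial 95% interval 5.62 to 9.03), 4.60 for HLA-DPA1 (3.77 to 5.65), 5.35 for HLA-DMB (3.41 to 8.71) and 2.07 for CTSS (1.94 to 2.21). HLA-DRA, HLA-DPB1 and HLA-DMA did not pass the test (adjusted p = 0.674, 0.168 and 0.134). CIITA RNA was thus higher, and that of 6 of the other 9 genes lower, in the same treated line. The CD74 difference (-0.74 ± 0.26, adjusted p = 0.0184) was lost with a term for the library sets (-0.21, adjusted p = 0.339). With the same term HLA-DPB1 passed as lower (-1.46, adjusted p = 0.0401), as it did within the libraries numbered 1 and 2 (-2.05, adjusted p = 0.00855), and HLA-DMA passed as higher within those numbered 4 and 5 (0.72, adjusted p = 0.00123).

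Levels of different genes can be set side by side in FPKM, which is given per transcript length. In untreated HCC38, CTSS stood highest at 11.8 ± 1.98 FPKM (SD, n = 3), followed by HLA-DMA at 6.34 ± 0.012 and HLA-DRB1 at 4.33 ± 0.29. HLA-DQA1 (3.48 ± 0.45), HLA-DPA1 (3.40 ± 0.56), CD74 (2.67 ± 0.51) and HLA-DMB (2.19 ± 0.30) followed with spreads that overlapped from one to the next. CIITA (0.593 ± 0.104), HLA-DRA (0.564 ± 0.224) and HLA-DPB1 (0.342 ± 0.103) came last. HLA-DRA thus lay below HLA-DRB1, the gene of its partner chain, in every HCC38 library. In treated HCC38 the order was led by CTSS (17.9 ± 0.49) and CD74 (11.3 ± 1.42), and CD74 had passed HLA-DMA (6.70 ± 1.68), HLA-DRB1 (6.13 ± 0.62) and HLA-DPA1 (5.40 ± 0.74), 3 genes whose spreads overlapped. HLA-DQA1 (2.82 ± 1.10), HLA-DMB (1.97 ± 0.43), HLA-DRA (1.39 ± 0.62), HLA-DPB1 (0.817 ± 0.778) and CIITA (0.512 ± 0.308) followed, each within the spread of the next.

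In untreated MDA-MB-231, HLA-DMA (2.69 ± 0.42 FPKM, SD, n = 3) and CTSS (2.43 ± 0.38) led and did not differ beyond their spread. CD74 (1.48 ± 0.83) and CIITA (0.996 ± 0.545) also overlapped, HLA-DRA stood at 0.444 ± 0.282 and HLA-DRB1 at 0.330 ± 0.229. HLA-DMB (0.184 ± 0.013), HLA-DPA1 (0.161 ± 0.022) and HLA-DPB1 (0.102 ± 0.157) came next, and HLA-DQA1 was listed at 0 in all 3 libraries. In treated MDA-MB-231, CTSS (11.8 ± 3.34), HLA-DMA (8.05 ± 2.63) and CD74 (5.81 ± 1.58) led, with overlap between neighbours. HLA-DRA (1.53 ± 0.28), HLA-DRB1 (1.34 ± 0.73), HLA-DPA1 (1.12 ± 0.62) and CIITA (1.10 ± 0.15) came next, each overlapping with the one after it, but all 3 HLA-DRA libraries lay above all 3 CIITA libraries. HLA-DMB (0.482 ± 0.202) and HLA-DPB1 (0.445 ± 0.461) came next, and HLA-DQA1 was above 0 in treated replicate 3 only.

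**Figure D4:**
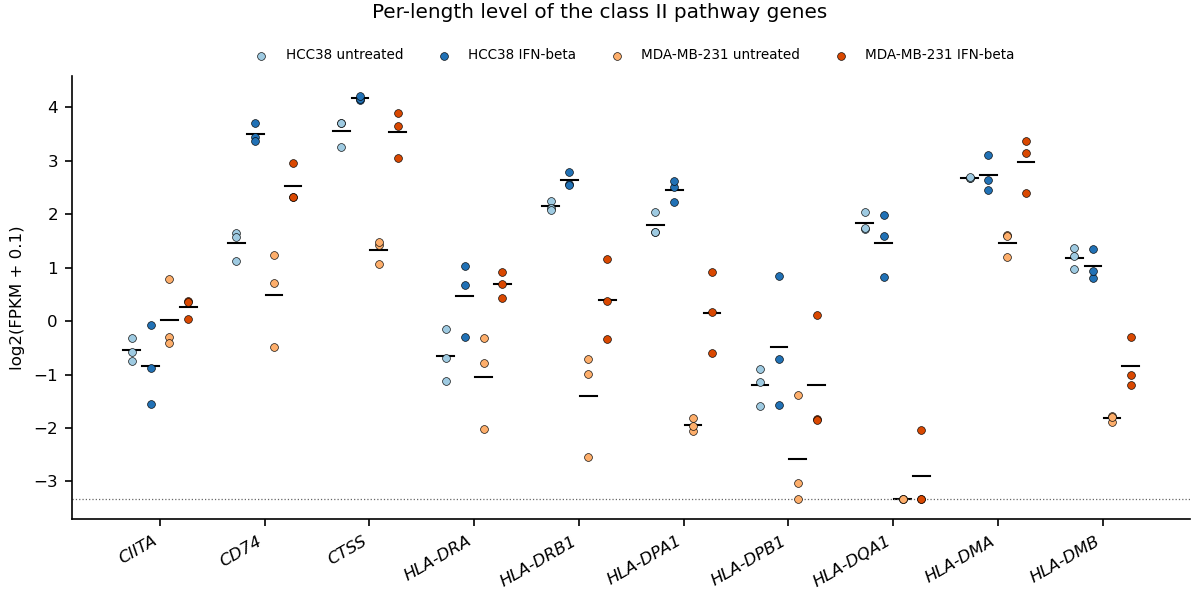
Level of the 10 genes as log2(FPKM + 0.1) in each library, coloured by group; bars are means of the 3 log values, and the dotted line is the value of an FPKM of 0. CTSS, CD74 and HLA-DMA lead in treated cells of both lines, and CIITA overlaps between treated and untreated libraries in both.

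Among 6 further class II chain genes, 3 passed the filter. In MDA-MB-231 HLA-DQB1 alone was called higher after interferon-β, on 6 counts against 0 (at least 1.97-fold with the floor of 3 counts, edgeR adjusted p = 0.0380). There 6.46% of all genes were called higher, and in HCC38 none of the 3 passed. HLA-DQB1, and HLA-DRB5 with 1 and 9 counts in untreated and treated MDA-MB-231, passed the filter through HCC38. A call of higher in MDA-MB-231 was thus favoured for them. HLA-DRB5, another DR β chain gene, stood at 0.860 ± 0.493 and 1.70 ± 0.27 CPM in untreated and treated HCC38 (SD, n = 3, adjusted p = 0.375) and at 0.010 and 0.076 CPM on average in MDA-MB-231. HLA-DOB, the β chain gene of the HLA-DM inhibitor HLA-DO, stood at 0.817 ± 0.135 and 0.964 ± 0.121 CPM in HCC38 and at 0.321 ± 0.213 and 0.378 ± 0.052 CPM in MDA-MB-231, with no change by the test. HLA-DOA, its partner, held 1 count in all 12 libraries together. All 3 tested genes were lower in MDA-MB-231 than in HCC38 by the test both before and after treatment, where 39.0% and 38.2% of all genes were called lower. For HLA-DQB1 and HLA-DRB5 a call of lower was favoured, since they passed the filter through HCC38.

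The complex that brings CIITA to the promoters was tested in all 7 genes. None passed in HCC38, and 1 rose and 1 fell in MDA-MB-231 (6.46% and 6.08% of all genes), with a median log2 fold change of 0.11 there and -0.04 in HCC38. RFX5 rose in MDA-MB-231 from 107, 108 and 93.8 CPM to 153, 121 and 129 CPM (log2 fold change 0.38 ± 0.09, SE, edgeR adjusted p = 0.0107). In HCC38 it stood at 126 ± 2.29 and 129 ± 3.28 CPM (SD, n = 3). NFYA, the DNA-binding NF-Y subunit, fell by 0.41 on the log2 scale in MDA-MB-231, from 79.8 ± 5.60 to 59.9 ± 4.00 CPM (adjusted p = 0.00392). RFXAP (8.66 ± 0.87 to 10.7 ± 0.68 CPM) and RFXANK (37.5 ± 5.29 to 40.5 ± 5.84 CPM) did not pass there (adjusted p = 0.114 and 0.626).

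Of the genes upstream of CIITA, IRF1, which binds the interferon-γ-driven CIITA promoter, did not pass in HCC38 (61.2 ± 1.93 to 78.8 ± 2.76 CPM, SD, n = 3, edgeR adjusted p = 0.328) or in MDA-MB-231 (30.4 ± 8.04 to 35.4 ± 9.07 CPM, adjusted p = 0.477). IFNG, the gene of interferon-γ, held 0 counts in all 12 libraries.

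In the endosomal processing list 11 of 12 genes were tested, 1 rose in HCC38 (2.39% of all genes), and 3 rose and 1 fell in MDA-MB-231 (6.46% and 6.08% of all genes), with median log2 fold changes of 0.16 and 0.18. CTSL, which encodes cathepsin L, rose in both lines, by 0.45 ± 0.08 in HCC38 and 0.48 ± 0.08 in MDA-MB-231 on the log2 scale (SE, edgeR adjusted p = 0.00501 and 0.00123). In MDA-MB-231 LGMN, an asparagine-specific protease (0.46 ± 0.08, adjusted p = 0.00156), and CST3, a secreted inhibitor of cathepsins (0.43 ± 0.12, adjusted p = 0.0308), rose as well. SPPL2A, which removes the last membrane stub of CD74, fell by 0.50 on the log2 scale there (adjusted p = 0.0137), while its FPKM stood at 26.3 ± 5.21 untreated and 28.3 ± 5.01 treated. IFI30, the interferon-inducible thiol reductase of the pathway, held 0 to 4 counts per library and was not tested, but its FPKM was 47.8 ± 0.81 and 65.3 ± 3.15 in HCC38 and 44.2 ± 3.53 and 89.3 ± 14.4 in MDA-MB-231. Treated libraries did not overlap untreated ones in FPKM in either line, and since counts and FPKM of IFI30 contradict each other, neither is taken as its level.

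Beyond antigen presentation CD74 serves as a receptor for the cytokine MIF, and 4 of the 6 genes of that list were tested, of which 1 rose in each line (2.39% of all genes in HCC38 and 6.46% in MDA-MB-231; median log2 fold changes 0.12 in HCC38 and 0.47 in MDA-MB-231). CD44, its signalling partner, rose in HCC38 from 292 ± 13.0 to 452 ± 8.86 CPM (SD, n = 3, log2 fold change 0.63 ± 0.11, edgeR adjusted p = 0.00373). It stood at 1004 ± 135 and 1045 ± 141 CPM in MDA-MB-231. ACKR3, a chemokine receptor that also binds MIF, was called higher in MDA-MB-231 on 28 counts against 2 (adjusted p = 0.00780), and held 105 and 63 counts in untreated and treated HCC38. With 2 counts over the untreated MDA-MB-231 group, ACKR3 passed the filter through other groups, so a call of higher was favoured. Of the costimulatory genes only CD40 was tested. CD40, the receptor through which T cells activate presenting cells, stood at 32.5 ± 5.62 and 32.5 ± 0.46 CPM in untreated and treated MDA-MB-231 (SD, n = 3, adjusted p = 1.00) and held 1 and 5 counts in the HCC38 groups.

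The genes closest to each class II gene in pattern were taken as those with the smallest root mean square difference of log2 CPM over the 12 libraries, after each gene was centred on its mean. For CTSS they were PSMB8-AS1 (0.162), TAP1 (0.224), the peptide transporter of class I presentation, and PLEKHA4 (0.241). CD74 had HLA-B (0.449), a class I heavy chain gene, PLSCR1 (0.477) and DTX3L (0.494). HLA-DPA1 had HLA-F (0.412), HLA-DRA had BTC (0.421), HLA-DPB1 had ETV7 (0.455), HLA-DRB1 had MDK (0.502), HLA-DMA had MISP (0.260) and CIITA had NFKBID (0.208). Within the 10 genes the closest pair was HLA-DPB1 with CTSS (0.466), ahead of CD74 with HLA-DRA (0.679) and HLA-DRB1 with HLA-DPA1 (0.712). Among the other 9 genes the nearest to CD74 was HLA-DRA. The 3 genes named for CD74 were picked as the closest of all genes tested, so their smaller distances are no result about CD74. All values come from the same 12 libraries and their 2 lines and 2 treatments.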

How the data were processed

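RNA-seq of 12 libraries was analysed from deposited per-library tables. The counts are reads per gene that the authors made with HTSeq 2.0.2 after read trimming with fastp 0.23.2, and the FPKM values come from Cufflinks 2.2.1 on GRCh38.p13, per the submitters' processing notes. No source used here gives the aligner, the annotation release or the strand and overlap settings. Libraries were made from total RNA with a directional kit, per the labels' protocols. The deposited counts of 61552 genes were fitted in edgeR 4.0.16 (R 4.3.3; TMM scaling factors 0.947 to 1.03) with a quasi-likelihood test, 1 coefficient per group and no replicate block, after a filter at a minimum count of 10 (18121 genes). P-values were adjusted by Benjamini and Hochberg over all genes tested and called under 0.05. CPM are counts scaled to a common TMM-adjusted library size. Where a group held 0 counts the floor was 3 counts over the group, and ratios of summed counts have exact binomial 95% intervals for counting error only. FPKM were tested with limma 3.58.1 at pseudocounts of 1 and 0.1, and log2(FPKM + 1) understates changes of low genes. DESeq2 1.42.0 and limma-voom were alternatives. The scripts were tested on simulated counts. All 10 genes and the genes of each list called in either response were named, with RFX5, RFXAP, RFXANK, IRF1, HLA-DQB1, HLA-DRB5, HLA-DOA and HLA-DOB always. The genes, lists and tests were chosen with earlier results of these data known. No 2 libraries were duplicates. Some results are not reported here. Of 5 tested markers of line identity 1 was higher in each line. In MDA-MB-231 the 1 tested receptor gene and 2 of 5 tested fibroblast and endothelial markers were higher. Of all genes, 2.39% were called higher in HCC38 and 6.46% in MDA-MB-231. The fibroblast and endothelial list summed to 2702 to 3244 CPM in untreated HCC38 and 16.1 to 27.6 CPM in untreated MDA-MB-231.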

Additional observations from a re-analysis of the deposited data

Results flagged for a closer look

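The response to interferon-β differed between the lines by a direct test of the difference (edgeR quasi-likelihood, adjusted over all genes) for 4 of the 10 genes, where 1.99% of all genes were called in that direction and 1.52% in the other. The log2 response in MDA-MB-231 exceeded that in HCC38 by 2.72 for HLA-DRB1, by 2.51 for HLA-DPA1, by 1.73 for HLA-DMA and by 1.21 for CTSS. All 3 treated MDA-MB-231 libraries lay above the 3 untreated ones for each of these genes. The genes were picked by a test on the same values, so this separation adds no support. HLA-DRB1 and HLA-DPA1 rest on 9 and 14 counts in the untreated MDA-MB-231 group. They reached the filter level in none of its libraries, so a larger response in that line was favoured for them. The difference was lost for HLA-DMA in 13, for HLA-DRB1 in 11, for HLA-DPA1 in 4 and for CTSS in 1 of 24 alternatives.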

How the results depend on the processing

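With up to 25 alternatives for each response and 24 for each other comparison, no result of the 10 genes changed from higher to lower or the reverse while past the threshold. The CD74 and HLA-DPA1 responses in MDA-MB-231, the CD74 response in HCC38 and the CTSS response in MDA-MB-231 passed in all 25. The number of genes past the threshold was 8 in MDA-MB-231, and 5 on log2(FPKM + 0.1), 4 with only the groups compared, 4 within the libraries numbered 1 and 2, 5 against a 1.5-fold change and 6 to 8 with 1 library left out. In HCC38 it was 2, and 1 on log2(FPKM + 1), 1 on log2(FPKM + 0.1), 1 against a 1.5-fold change, 2 whichever library was left out, and 3 within each set, with only the groups compared and without a filter. For the difference of responses it was 4, and 1 on log2(FPKM + 1), 1 on log2(FPKM + 0.1), 2 within the libraries numbered 1 and 2, 6 within those numbered 4 and 5, 5 with a term for the library sets, with no filter and with DESeq2, 0 against a 1.5-fold change (92 genes of all passed there, 875 at an unadjusted p under 0.05) and 2 to 5 with 1 library left out, where it was 2 without HCC38 untreated replicate 1 or 3, HCC38 treated replicate 1 or 3, MDA-MB-231 untreated replicate 1 or treated replicate 3. With 1 library left out it was 7 to 8 between the untreated lines and 6 to 8 between the treated lines. The causes were not tested. A replicate block left 2 genes in HCC38, 8 in MDA-MB-231 and 3 for the difference. The replicate numbers of the titles did not pair the libraries: deviations correlated at 0.036, -0.12 and 0.024 in HCC38 and at 0.274, -0.258 and 0.249 in MDA-MB-231. In MDA-MB-231 the correlation was 0.249 to 0.375 for all pairs within a library set and -0.474 to -0.145 for all pairs across the sets. Over all genes, 659 passed in HCC38 (88 to 2140 over the alternatives), 2272 in MDA-MB-231 (275 to 4096) and 636 for the difference (92 to 2353). With library totals the split in MDA-MB-231 was 1672 higher and 674 lower against 1170 and 1102, and for the difference 464 and 164 against 360 and 276. Depth limits HLA-DQA1, HLA-DMB, HLA-DPB1, HLA-DRB1 and HLA-DPA1 in MDA-MB-231, where untreated groups held 0 to 14 counts.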
